A study of Drosophila melanogaster with 39 samples.

Results

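The genes described here carry out fatty acid oxidation in mitochondria and peroxisomes, or build peroxisomes, in single *Drosophila melanogaster* heads. They were chosen by name: 33 listed genes and every other gene whose name begins with Pex and a digit, which added 3 more. This gave 36 genes of 17559 in the deposited count table. All 36 were among the 10272 genes that passed the filter on low counts, and none had a count of 0 in any library.

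Polyadenylated RNA was sequenced from heads of adult males of the genotype Cantonized w1118, reared at 25 °C and 60% humidity under 12 h of light and 12 h of dark, and each library was one head. Flies were naive or had received electric shocks (60 V for 5 min). They were placed in classes of place preference called High, Mid or Low by an assay at 1.5 h, and were frozen at 2.5 h. The naive heads analysed were 7 of class Mid and 7 of class High, and the shocked heads were 8 Mid, 6 High and 9 Low, with no naive Low group. The protocol places the assay later than the shock, so a class may select different flies among shocked and naive ones. Such selection and the shock cannot be told apart here. The labels give the same treatment text to naive and shocked samples, so the titles define these groups.

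Total counts ran from 5.01 to 11.32 M per library (M, megacounts), with a median of 7.65 M. Markers of neurons, photoreceptors, glia, muscle, haemocytes and fat body were all read in these heads. The summed level of the 9 neuronal markers was 4565 to 7828 CPM (counts per M of the TMM-scaled library total), and that of the 2 male-specific dosage compensation RNAs was 1052 to 2363 CPM. The 11 fat body markers, which mark the tissue that stores and releases lipid, summed to 1128 to 12226 CPM. One of them, Pepck, had a count of 0 in every library.

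Fatty acids are activated to acyl-CoA, carried into mitochondria as carnitine esters and shortened in repeated cycles of dehydrogenation, hydration, a second dehydrogenation and thiolysis. The first dehydrogenation passes electrons to the electron transfer flavoprotein. Peroxisomes shorten very long and branched chains with an acyl-CoA oxidase in place of that dehydrogenase, and import their enzymes from the cytosol through the peroxins, the products of the Pex genes. In the fly the fat body is a main site of lipid use and release, and oenocytes and muscle also oxidise fatty acids.

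Between genes, levels were compared as CPM per kb of exon. The most abundant of the 36 was CG7834, the beta subunit of the electron transfer flavoprotein (named Etfb in the annotation), at a mean of 147 CPM per kb over the 37 libraries. The least abundant was Pex7, the receptor for enzymes with the second kind of peroxisomal targeting signal, at 0.990 CPM per kb. Among the genes for activation and carnitine transport, Acsl, a long-chain acyl-CoA synthetase, had the highest level (84.2 CPM per kb), and CG2107, the inner-membrane carnitine palmitoyltransferase (CPT2), the lowest (11.2 CPM per kb). The lowest among the dehydrogenases and electron transfer genes was CG9547, a predicted glutaryl-CoA dehydrogenase, at 9.49 CPM per kb. The hydratase, hydroxyacyl dehydrogenase and thiolase genes ran from Mtpalpha, the alpha subunit of the trifunctional protein, at 49.4 to scu, a hydroxyacyl-CoA dehydrogenase, at 113 CPM per kb. In peroxisomal oxidation the range was from the predicted acyl-CoA oxidase CG4586 at 4.60 to Pmp70, an ABC transporter of the peroxisomal membrane, at 48.2 CPM per kb. Of the peroxins, Pex19, which chaperones membrane proteins to the peroxisome, was highest at 69.2 CPM per kb. Levels of the 14 peroxins thus spread far more widely than those of the 5 core mitochondrial hydratase, dehydrogenase and thiolase genes.

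**Figure D1:**
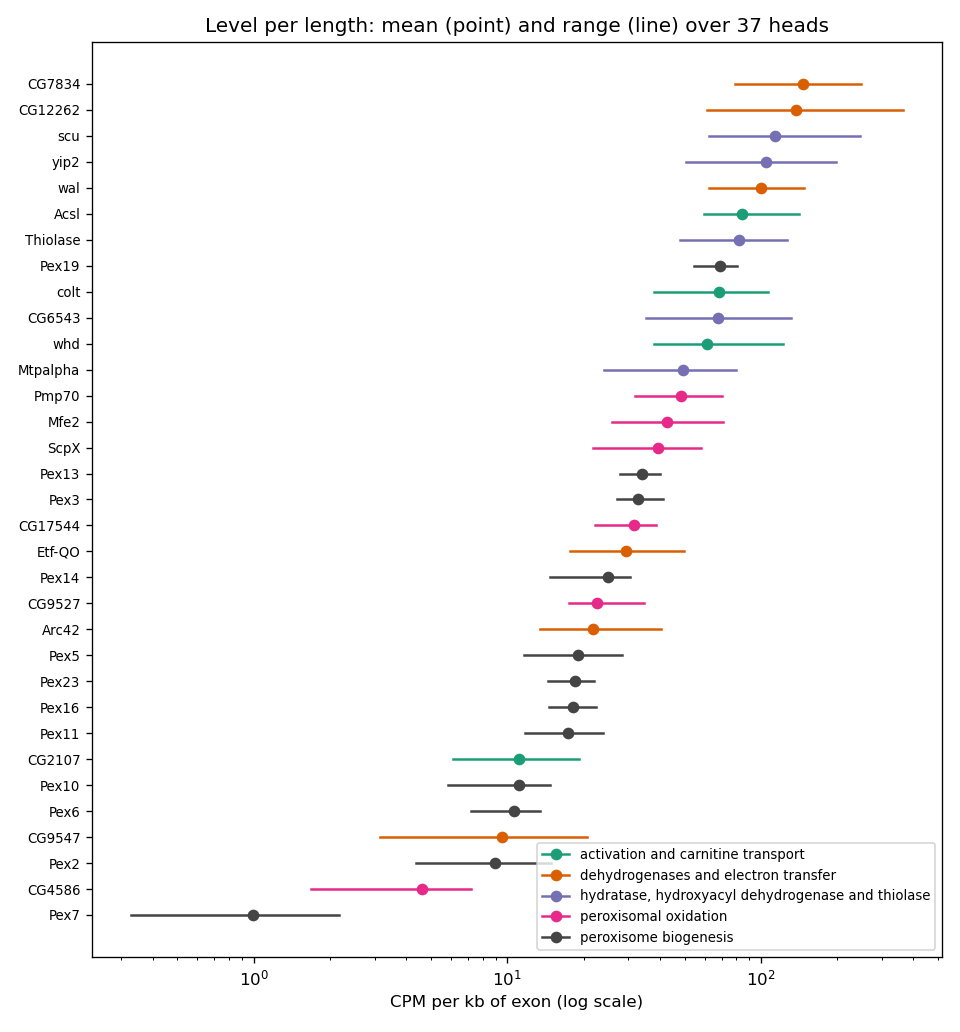
Level of each of 33 of the genes as CPM per kb of exon on a log axis, with the mean over 37 heads as a point and the range over heads as a line, coloured by role. CG7834 is highest at a mean of 147 and Pex7 lowest at 0.990.

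The genes lie on all the large chromosome arms, with 9 on 2L, 10 on 2R, 10 on 3L, 2 on 3R and 5 on X. One pair is adjacent: Pex16 and Pex14 are divergently placed on 3L with 534 bases between them. Exons of other genes cover part of 15 members, over 10% of the exonic bases in 8 of them, and no label or file header tells whether strand was used in counting. The strongest case is CG12262, the medium-chain acyl-CoA dehydrogenase (Mcad in the annotation, 3L:7719350-7721472, plus strand). Exons of CG7457, on the opposite strand, cover 92.6% of its exonic bases, and without knowledge of the strand setting the reads of both genes cannot be told apart. The level of CG7457 was 89.3 to 562 CPM (mean 209), beside 90.0 to 533 CPM (mean 200) for CG12262. Whether the same reads were counted for both was not tested. An antisense RNA covers 56.6% of the exonic bases of Pex23.

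The 5 groups were first set in order by their mean log2 CPM. Shocked Mid heads had the highest mean for 26 of the 36 genes, among them 20 of the 22 enzymes and transporters and 6 of the 14 peroxins. Over all genes tested, shocked Mid was the highest group for 28.9%. Shocked High heads had the lowest mean for 25 of the 36, against 25.1% of all genes, and 22 of the 36 had both, against 12.2% of all genes. Summed over the 36 genes, the median level was 3626 CPM in shocked Mid heads (range 3044 to 4995), 3072 in naive Mid (2613 to 3752), 2873 in shocked Low (2190 to 3296), 2861 in naive High (2129 to 3908) and 2524 in shocked High (2281 to 3403). Every group overlapped each of its neighbours in this order. The 14 peroxins together had group medians of 475 to 531 CPM, while the 6 dehydrogenase and electron transfer genes had group medians from 468 CPM in shocked High to 843 CPM in shocked Mid.

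One head, shocked Mid replicate 6, had the highest level of 19 of the 36 genes. Naive High replicate 7 was lowest for 8 and shocked Low replicate 8 for 7. Within groups, the SD of log2 CPM had a median of 0.34 for the activation and carnitine genes, 0.36 for the dehydrogenase and electron transfer genes and 0.41 for the hydratase to thiolase genes. It was 0.25 for peroxisomal oxidation and 0.23 for the peroxins, and the median over all genes tested was 0.25.

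No member passed the test of any difference among the 5 groups (edgeR quasi-likelihood test with Benjamini-Hochberg adjustment over all genes tested, which called 0.107% of them). The smallest adjusted p-values were 0.156 for Pex5, 0.165 for CG12262 and 0.166 for CG2107. At an unadjusted p under 0.05 there were 18 of the 36, against 12.2% of all genes. DESeq2 called 6 after adjustment (Acsl, whd, CG2107, CG12262, CG6543 and Pex5), among 1.12% of its genes, and gave no adjusted p for 2 of the 36. Without shocked High replicate 3, edgeR called CG2107 and Pex5, among 0.165% of all genes.

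Shocked High and shocked Mid heads differed most. Pex5, the receptor that brings enzymes with the common C-terminal targeting signal into the peroxisome, was lower in shocked High heads and was the 1 member that passed in edgeR's test, where 0.0681% of all genes were called. Its level was 25.9 to 44.6 CPM with a median of 34.0 in shocked High heads, and 45.1 to 63.3 CPM with a median of 50.4 in shocked Mid heads. Every shocked High head therefore lay below every shocked Mid head. In shocked Low heads Pex5 was 35.7 to 47.7 CPM (median 42.3), in naive Mid heads 36.3 to 53.6 (median 38.9) and in naive High heads 26.4 to 49.3 (median 42.6). These 3 groups lay between and overlapped both. The log2 difference of Pex5 was -0.62 (SE 0.12, edgeR adjusted p = 0.0245). The gene lies at X:1866832-1869061 on the minus strand, and exons of CG14803 and MED18 cover 11.1% of its exonic bases.

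The Pex5 call did not hold in edgeR without shocked High replicate 1, 2, 4, 5 or 6 or shocked Mid replicate 5 or 6, where its log2 difference was -0.56 to -0.64 and its adjusted p 0.0514 to 0.134. With the fat body marker score (the mean log2 CPM of 10 fat body markers in a head) in the fit, the log2 difference was -0.43 (adjusted p = 0.808). Over all alternatives the adjusted p ran from 0.000628 to 0.808.

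The other members did not pass, but 30 of the 36 log2 differences were negative, with a median of -0.41 against -0.01 over all genes tested. In edgeR, 22 members had an unadjusted p under 0.05, all 22 with lower levels in shocked High, against 10.6% of all genes in that direction. These were all 4 activation and carnitine genes, all 6 dehydrogenase and electron transfer genes, all 5 hydratase to thiolase genes, 5 of 7 peroxisomal oxidation genes, and Pex5 and Pex10. The 15 mitochondrial genes spanned log2 differences from -1.08 (CG9547) to -0.47 (Thiolase, the beta subunit of the trifunctional protein). Their adjusted p-values started at 0.0662, for CG12262. In peroxisomal oxidation the range was -0.53 (ScpX, a thiolase joined to a sterol carrier domain) to 0.05 (CG17544, a predicted acyl-CoA oxidase), and among the peroxins other than Pex5 the lowest was -0.35 (Pex10, a ring-finger protein that acts on the import receptor). In 3 members, Pex5, Acsl and ScpX, the levels of the 2 groups did not overlap, with shocked High lower, as in 0.263% of all genes tested.

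DESeq2 called 16 members lower in shocked High, among 3.84% of the genes for which it gave an adjusted p. The authors' deposited table gives a q-value under 0.05 for 18 members, all 18 higher in shocked Mid than in shocked High, among 2.33% of its genes in that direction. Without shocked High replicate 3, edgeR called 18 members, namely all 15 mitochondrial genes, CG9527 (a predicted acyl-CoA oxidase, Acox3 in the annotation), ScpX and Pex5. It then called 586 genes in all, or 5.7% of those tested. That head had the highest fat body marker score of its group, at 7.24 against 5.60 to 6.72 log2 CPM in the other shocked High heads. The count was 10 without shocked Mid replicate 8, which had the lowest score of its group (6.76), and 0.886% of all genes were then called. It was 4 without naive High replicate 7 (0.419% of all genes), 2 without shocked Mid replicate 7 (0.321%) or shocked Low replicate 3 (0.574%), and 0 without any 1 of the 7 libraries named above for Pex5.

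**Figure D2:**
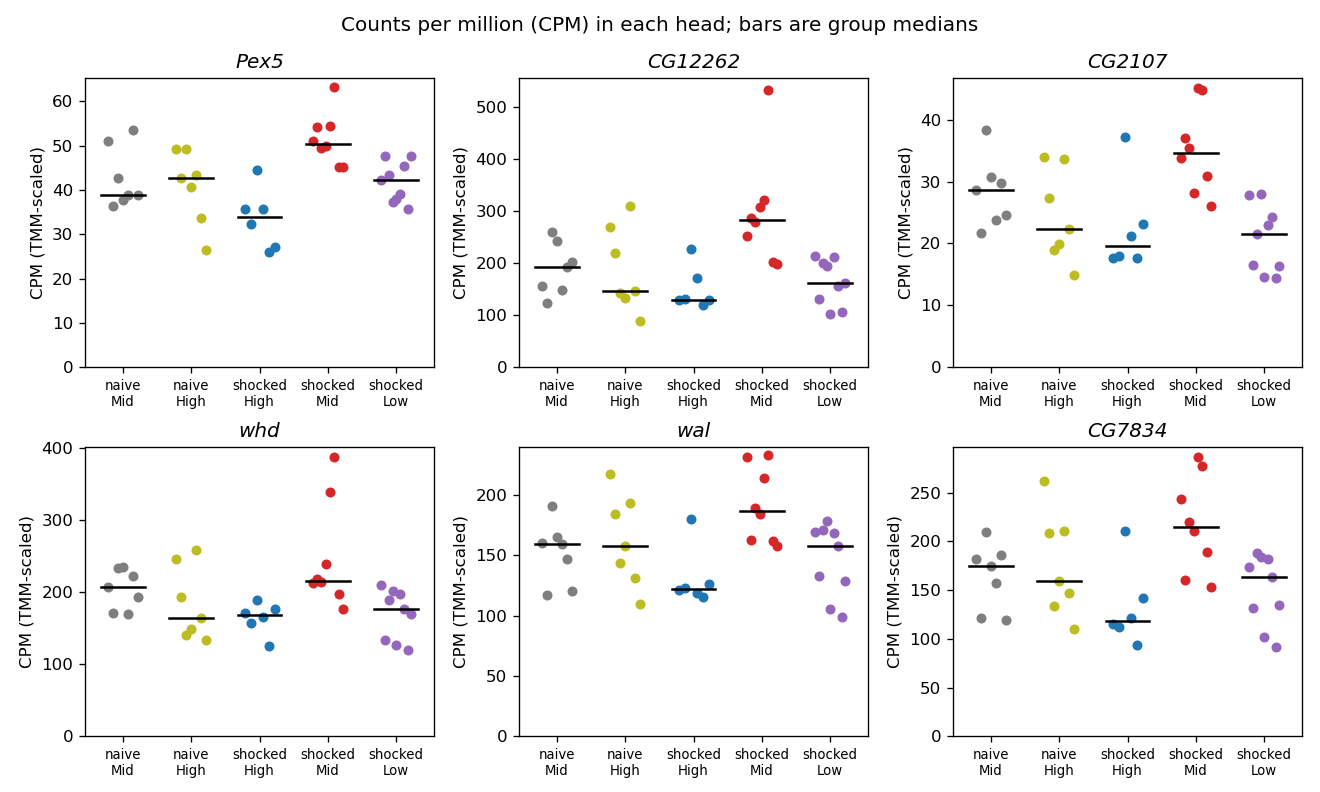
Level in CPM of Pex5, CG12262, CG2107, whd, wal and CG7834 in each of the 37 heads, by group, with bars at the group medians. Pex5 in the 6 shocked High heads (25.9 to 44.6 CPM) lies below all 8 shocked Mid heads (45.1 to 63.3 CPM), and in the other panels the groups overlap.

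Fat body markers moved with this difference. Of the 10 tested, all 10 had negative log2 differences between shocked High and shocked Mid, with a median of -0.85. An unadjusted p under 0.05 was found for 7, against 10.6% of all genes in that direction in edgeR. One passed after adjustment, Lsp2, a larval serum protein made by fat body (log2 difference -4.74, SE 0.94, edgeR adjusted p = 0.0245). Their summed level was 1748 to 4730 CPM in shocked High heads (median 2936) and 2888 to 12226 CPM in shocked Mid heads (median 5309). It was 1442 to 7263 CPM in naive Mid, 2311 to 5832 in naive High and 1128 to 5756 in shocked Low heads. With the fat body marker score in the fit, the median log2 difference of the 36 members was -0.10, 1 member had an unadjusted p under 0.05 (Pex5, against 5.94% of all genes) and none passed. A lower level in a head can reflect fewer cells of a type or less RNA per cell, which cannot be told apart in RNA of whole heads.

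Other cell type lists were also measured between shocked High and shocked Mid. All 10 muscle markers had positive log2 differences (median 0.22, 2 with an unadjusted p under 0.05), as had all 9 neuronal markers (median 0.18, 2) and all 10 photoreceptor markers (median 0.08, 0). Of 7 glial markers 2 had an unadjusted p under 0.05, and of 7 haemocyte markers, 2 male-specific RNAs and 3 yolk protein genes none. For scale, DESeq2 gave an unadjusted p under 0.05 to 6.83% of all genes as higher in shocked High and 10.5% as lower. No gene of these lists passed after adjustment, and their part in the members' differences was not tested.

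Between shocked Low and shocked Mid heads, which share the shocked Mid libraries with the comparison above, no member passed in edgeR (0.0195% of all genes called). The 3 smallest p-values belonged to CG2107, CG12262 and whd. CG2107 (CPT2, 3L:2981022-2983551, plus strand) was 14.4 to 28.1 CPM with a median of 21.5 in shocked Low heads and 26.1 to 45.1 CPM with a median of 34.6 in shocked Mid heads. It was 17.6 to 37.2 (median 19.7) in shocked High, 21.7 to 38.3 (median 28.6) in naive Mid and 14.8 to 34.0 (median 22.3) in naive High heads. Shocked Mid heads were thus mostly at the top and the naive groups spanned both. The log2 difference of CG2107 between shocked Low and shocked Mid was -0.77 (SE 0.17, edgeR adjusted p = 0.0905).

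CG12262 was 103 to 214 CPM with a median of 163 in shocked Low heads and 199 to 533 CPM with a median of 283 in shocked Mid heads. In shocked High heads it was 120 to 228 CPM (median 130), in naive Mid heads 123 to 260 (median 192) and in naive High heads 90.0 to 311 (median 146). The overlap of shocked Low and shocked Mid was small, and the highest value was 1 shocked Mid head. Its log2 difference between shocked Low and shocked Mid was -0.86 (SE 0.21, edgeR adjusted p = 0.0951). The opposite-strand gene CG7457 had a log2 difference of -0.83 in the same comparison, and of -0.91 (SE 0.24) between shocked High and shocked Mid.

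The carnitine palmitoyltransferase of the outer mitochondrial membrane, whd (2R:10469473-10478567, minus strand), controls the entry of long-chain fatty acids. It was 120 to 211 CPM in shocked Low heads (median 176) and 177 to 388 CPM in shocked Mid heads (median 216), and these ranges overlapped. The other groups were 125 to 190 CPM for shocked High (median 169), 170 to 235 for naive Mid (median 207) and 134 to 259 for naive High (median 164). The log2 difference of whd between shocked Low and shocked Mid was -0.55 (SE 0.15, edgeR adjusted p = 0.105).

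Across the 36, 29 log2 differences between shocked Low and shocked Mid were negative, with a median of -0.29. An unadjusted p under 0.05 was found for 20 members, all 20 lower in shocked Low, against 8.42% of all genes. Among them were the 15 mitochondrial genes, ScpX, Pmp70, CG9527 and Pex5. DESeq2 called 7 of the 20 (Acsl, whd, CG2107, CG12262, CG6543, Mtpalpha and yip2), among 1.66% of genes called lower. It gave no adjusted p for 2 of the 36 members. The authors' deposited table gives a q-value under 0.05 for 13 members, all lower in shocked Low, against 1.14% of its genes. In edgeR the count was 2 without shocked Mid replicate 8 (0.399% of all genes called) or shocked Low replicate 3 (0.506%), and 1 without shocked High replicate 3 (0.0779%) or shocked Low replicate 4 (0.0876%). All 10 fat body markers tested had negative log2 differences here too, 9 with an unadjusted p under 0.05 (8.42% of all genes). With their score in the fit the members' median was -0.04 and no member passed.

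**Figure D3:**
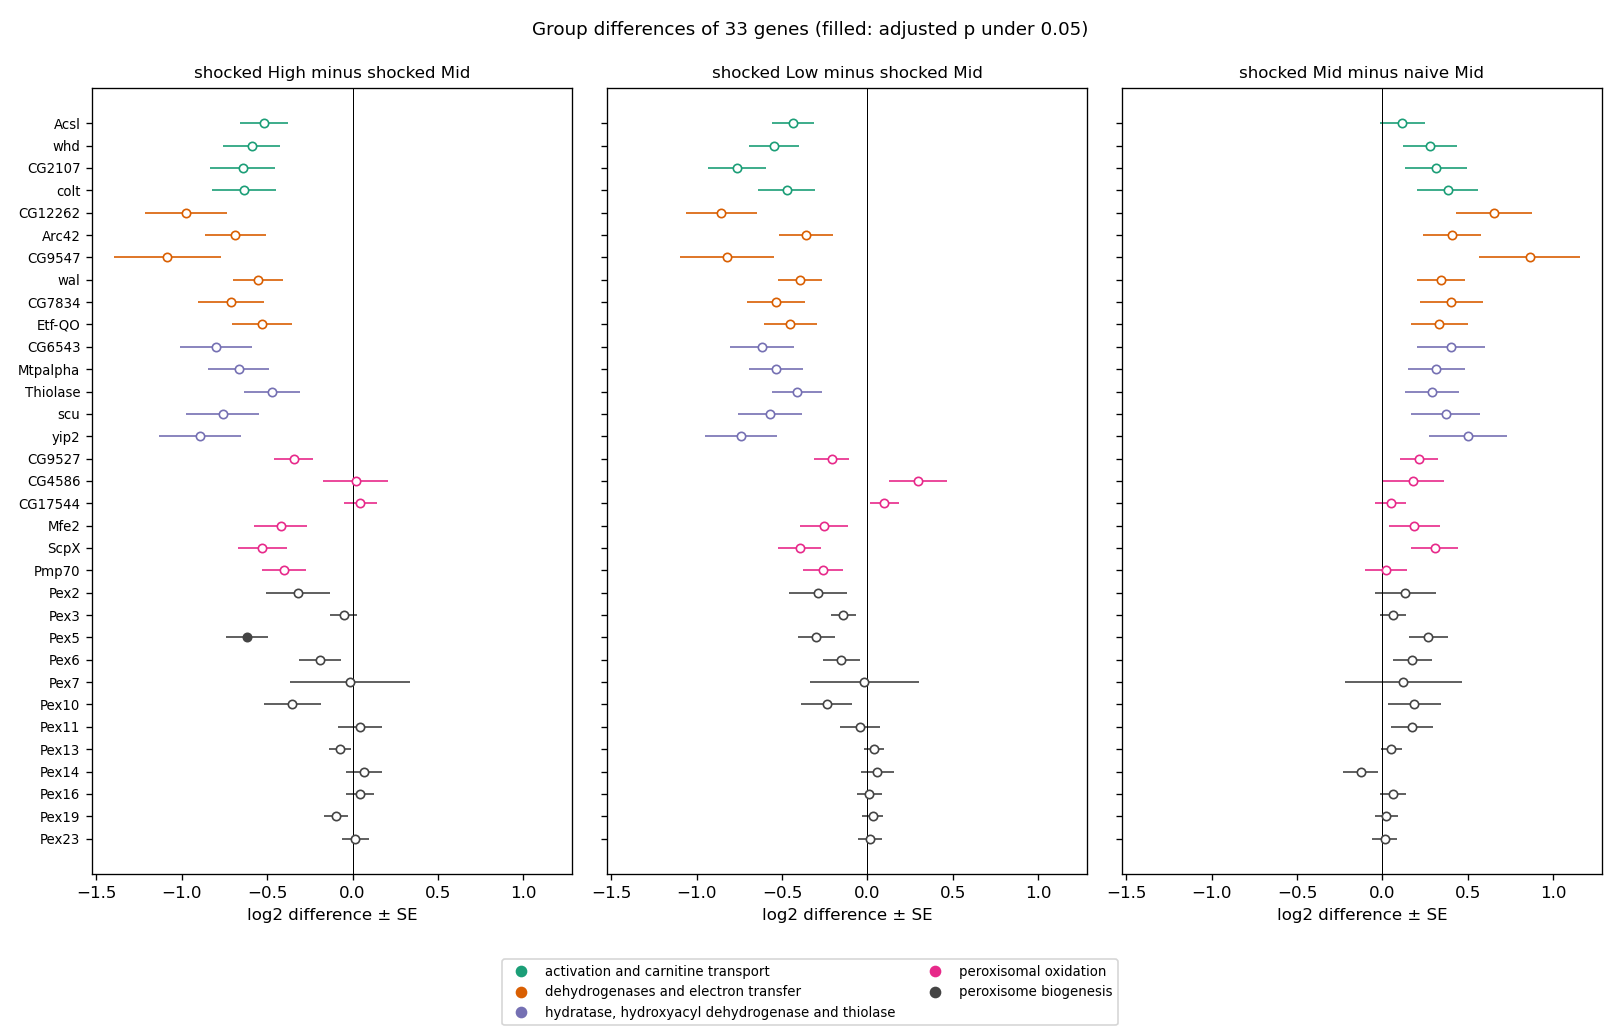
Log2 differences of 33 of the genes with their standard errors, by role, for shocked High minus shocked Mid, shocked Low minus shocked Mid and shocked Mid minus naive Mid, which share the 8 shocked Mid heads. Only Pex5 in the first panel is filled (adjusted p = 0.0245), and the mitochondrial genes lie below 0 in the first 2 panels.

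Shock was compared with the naive state within each class. Within Mid, 35 of the 36 log2 differences were positive with a median of 0.21, and no member passed in edgeR (0.0195% of all genes called) or in DESeq2, which gave no adjusted p for 8 of them. There were 10 members with an unadjusted p under 0.05, all higher in shocked heads, against 6.97% of all genes. The smallest p-values were those of CG9547 (log2 difference 0.86, SE 0.30), CG12262 (0.65, SE 0.22) and wal, the alpha subunit of the electron transfer flavoprotein (0.34, SE 0.14), with edgeR adjusted p from 0.230 to 0.30. CG9547 was 8.04 to 19.5 CPM in naive Mid heads (median 9.38) and 11.6 to 29.6 CPM in shocked Mid heads (median 22), and the groups overlapped. The authors' deposited table lists CG12262 at a q-value of 0.0269 in this comparison, where 0.834% of its genes were called higher. With the fat body score in the fit the median was 0.08.

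Within High, 28 of the 36 log2 differences were negative with a median of -0.16. None passed in edgeR or DESeq2, which called 0 genes in all, and 7 had an unadjusted p under 0.05 (all lower, against 2.99% of all genes). The smallest p-values belonged to Arc42, a short-chain acyl-CoA dehydrogenase (log2 difference -0.44, SE 0.18), Pex5 (-0.28, SE 0.13) and Pex19 (-0.16, SE 0.07), each with an edgeR adjusted p of 0.863. With the fat body score in the fit the median within High was -0.03, and 1 member was lower at an unadjusted p under 0.05 (2.6% of all genes). The interaction, shock within High minus shock within Mid, had a median of -0.40 over the members against -0.01 over all genes. No member passed in edgeR, where no gene did, or in DESeq2. At an unadjusted p under 0.05 there were 14 members, all 14 negative, against 7.26% of all genes. With the fat body score in the fit the interaction's median was -0.12, and 3 members were negative at that threshold, against 3.3% of all genes. The smallest p-values were those of CG9547 (-1.499, SE 0.44, edgeR adjusted p = 0.277), Arc42 (-0.84, SE 0.25, 0.277) and Pex5 (-0.55, SE 0.17, 0.284).

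With High and Mid weighted equally, shock gave a median log2 difference of 0.03, and no member passed in edgeR (0.00974% of all genes called) or DESeq2, or had an unadjusted p under 0.05 (6.3% of all genes). The nearest were Pex11 (0.18), which acts in peroxisome division, Pex19 (-0.07) and Pex3 (0.07), a membrane receptor for Pex19, with edgeR adjusted p of 0.802 to 0.859. The median over the members was -0.000925 without shocked High replicate 3 and 0.05 without naive High replicate 5. Naive High and naive Mid heads had a median log2 difference of 0.01 (-0.04 without naive High replicate 2 and 0.08 without naive High replicate 7), with no member passing in either tool or at an unadjusted p under 0.05 (3.09% of all genes). There the smallest p-values were those of Pmp70 (-0.21), CG17544 (0.13) and Acsl (-0.19), at an edgeR adjusted p of 1.00. Between shocked Low and shocked High heads the median was 0.12 and no member passed in either tool. This median was 0.05 with the fat body score in the fit and 0.07 to 0.17 with 1 library left out, lowest without shocked Low replicate 3 and highest without shocked High replicate 3. Pex5 (0.32, SE 0.12, edgeR adjusted p = 0.998) was the 1 member with an unadjusted p under 0.05 (2.41% of all genes were higher at that threshold), followed by Arc42 (0.32) and Pex19 (0.13).

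Heads of the same group differed in how much fat body marker RNA they held, and most of the enzymes varied with it. The fat body marker score ran from 5.38 to 8.61 log2 CPM over the 37 heads, with medians of 7.66 in shocked Mid, 7.19 in naive Mid, 6.87 in naive High, 6.75 in shocked Low and 6.37 in shocked High. The markers in the score were Rfabg, Apoltp, Lsd-1, Mtp, fat-spondin, Lsp2, CG3523 (FASN1), to, Gnmt and tobi. Whether slopes on it follow the amount of fat body or the activity of these genes was not tested. A slope within groups was fitted for every gene other than the markers. Of the 36 members 22 rose with the score and 1 fell in edgeR's test, against 11.2% and 3.27% of all genes. All 15 mitochondrial members rose, as did 5 of 7 peroxisomal oxidation genes (among them CG9527, Mfe2, ScpX and Pmp70), and of the 14 peroxins 2 rose, Pex2 among them, and Pex23 fell. The median slope of the 36 was 0.29 log2 per unit of score, and that of all genes was -0.01.

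The smallest p-value was that of CG7834 (3R:29801599-29802945, minus strand), whose level was 91.5 to 287 CPM over all heads. It was 154 to 287 CPM in shocked Mid heads (median 215), 119 to 209 in naive Mid (median 175), 91.5 to 188 in shocked Low (median 164), 110 to 262 in naive High (median 159) and 93.9 to 211 in shocked High (median 118). All the groups overlapped, and shocked Mid heads had the highest median. Its slope was 0.48 log2 per unit of score (SE 0.04, edgeR adjusted p = 3.17e-12). Its partner subunit wal (2R:11688569-11690863, minus strand) had a slope of 0.36 (SE 0.03, adjusted p = 7.19e-11).

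Next came scu, with a slope of 0.51 (SE 0.05), CG6543, the short-chain enoyl-CoA hydratase (0.50, SE 0.05), and Pmp70 (0.31, SE 0.03), with edgeR adjusted p from 1.26e-10 to 1.25e-09. The 15 mitochondrial slopes ran from 0.30 (Arc42) to 0.55 (CG9547). In peroxisomal oxidation CG17544 had a slope of -0.11 and CG4586 of -0.03, and neither passed. The slope of Pex5 was 0.14 (SE 0.05, adjusted p = 0.0675), and that of Pex13, a docking protein of the peroxisomal membrane, was -0.05 (SE 0.03). Pex23, named for a yeast peroxin, had a slope of -0.11 (SE 0.03, adjusted p = 0.0191) and was 65.4 to 98.9 CPM over all heads. The Pex23 call was lost in 4 of 43 alternatives, where its edgeR adjusted p reached 0.119. Pex13 was the steadiest, at 49.2 to 70.9 CPM over all heads. Over the alternatives 18 to 24 members were called. Oenocytes, which also oxidise fatty acids, had no list of their own here.

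**Figure D4:**
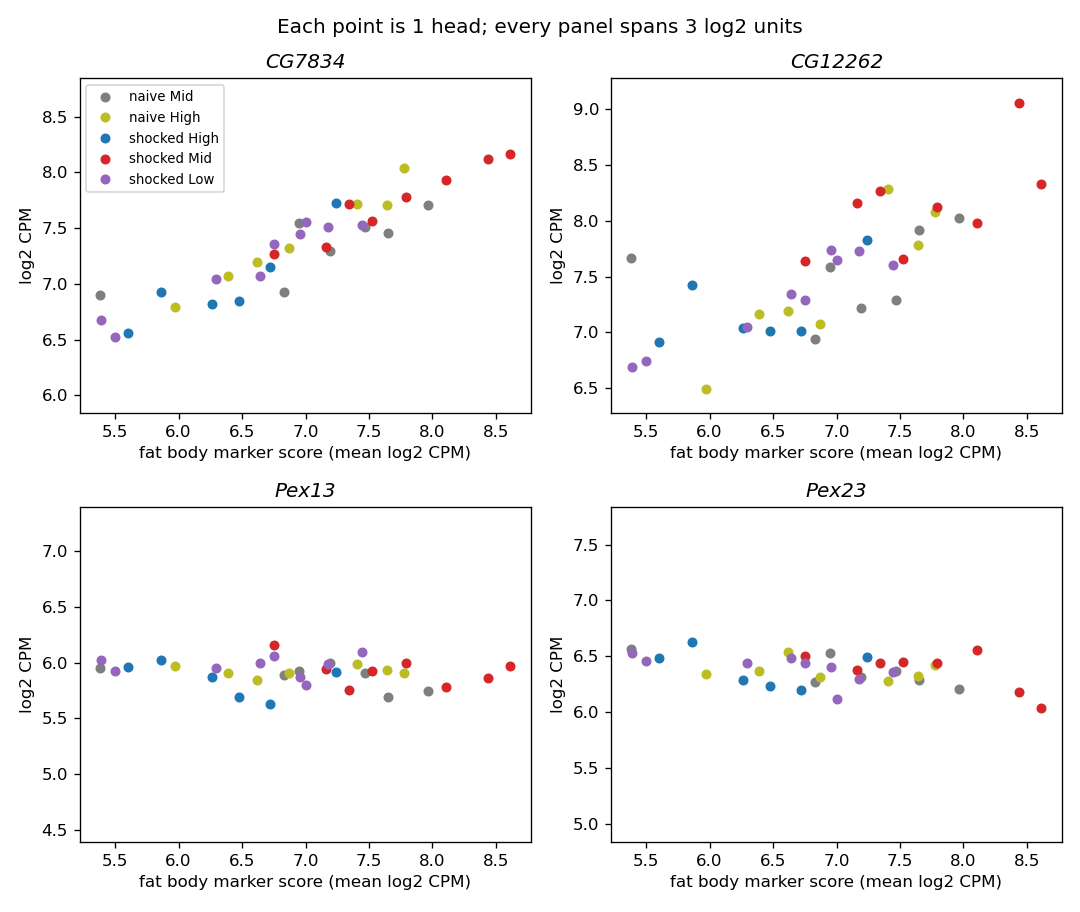
Log2 CPM of CG7834, CG12262, Pex13 and Pex23 against the fat body marker score (mean log2 CPM of 10 markers) in each of 37 heads, coloured by group, with every panel spanning the same height. CG7834 climbs with the score (slope 0.48), Pex13 is flat (-0.05) and Pex23 falls slightly (-0.11).

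On the muscle marker score 15 members had negative slopes that passed and none a positive one, against 4.14% of all genes called lower. The smallest p-values belonged to wal (slope -0.71, SE 0.14), colt, the carnitine-acylcarnitine carrier of the inner mitochondrial membrane (-0.89, SE 0.18), CG9547 (-1.54, SE 0.31), CG6543 (-0.94, SE 0.21) and CG7834 (-0.85, SE 0.20). Their edgeR adjusted p ran from 0.00243 to 0.0084. The scores moved against each other: 7 of 10 muscle markers fell with the fat body score. With both scores in one fit, no member had a called slope on the muscle score (3 were lower at an unadjusted p under 0.05, against 3.03% of all genes) and 19 had one on the fat body score (9.01% of all genes other than the markers). The muscle count was 4 without the 2 heads farthest from the median score (1.75% of all genes called in either direction), and 7 to 9 (2.56 to 4.11% of all genes) without any 1 of naive Mid replicate 2 or 3, naive High replicate 5, shocked Mid replicate 7 and shocked Low replicate 5 or 8.

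**Figure D5:**
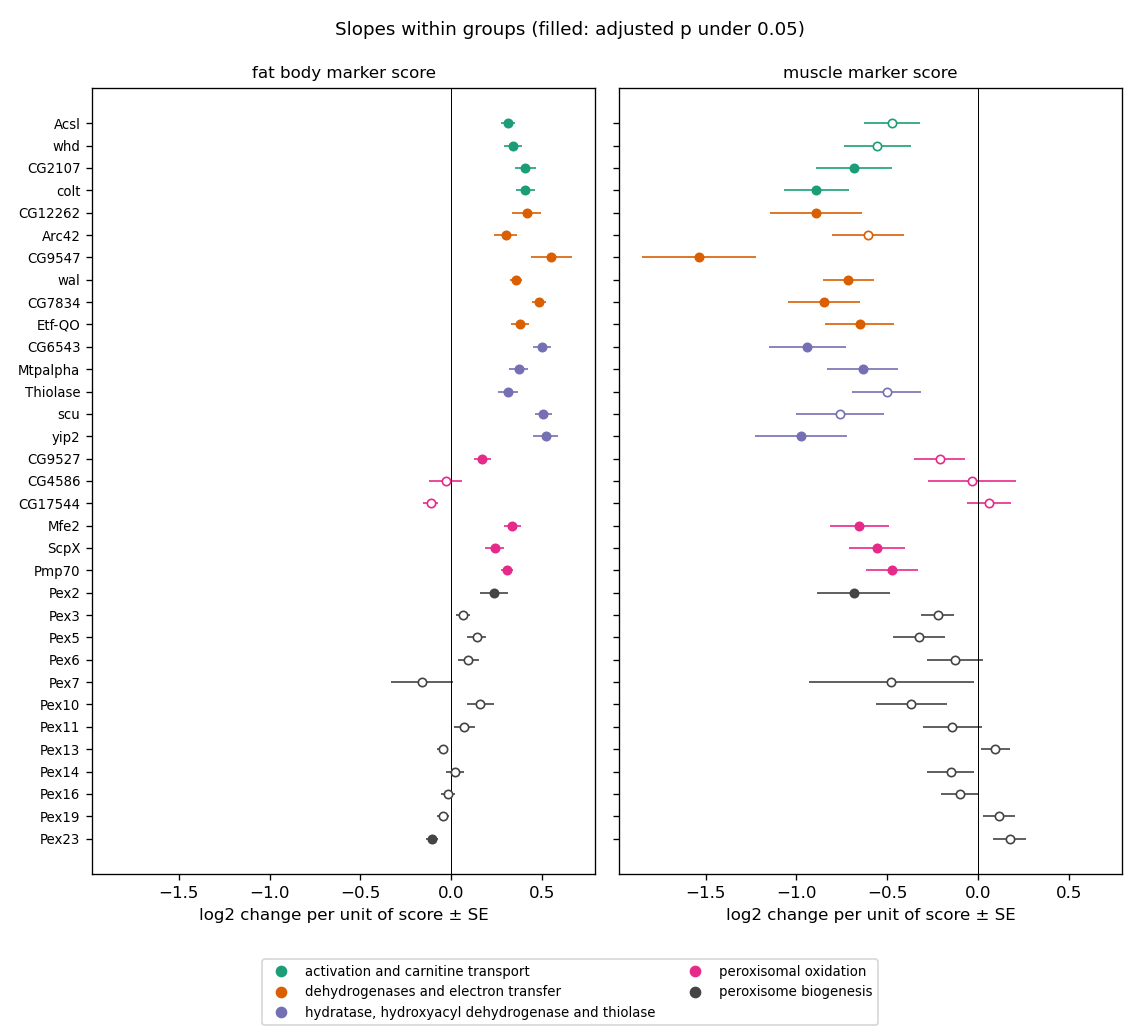
Slopes of 33 of the genes within groups on the fat body and muscle marker scores, as log2 change per unit of score with standard errors, by role, filled where the adjusted p was under 0.05. On the fat body score all 15 mitochondrial slopes are filled above 0 and Pex23 is filled below, and on the muscle score every filled slope is below 0.

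Subunits that work in 1 complex were compared across heads after removing group means. For the electron transfer flavoprotein, wal and CG7834 had Pearson r = 0.952 and Spearman rho = 0.949 over 37 libraries. The trifunctional protein subunits Mtpalpha and Thiolase had r = 0.835 and rho = 0.828. Both gave the smallest p that 100000 permutations within groups allow, 1e-05, and 6e-05 after adjustment over 12 pairs. Without the 2 heads farthest from the median on the first gene, r was 0.943 and 0.779. After the fat body score was removed as well, r was 0.749 and 0.663. Each of these genes also correlated with that score within groups, at r = 0.892 (wal), 0.911 (CG7834), 0.772 (Mtpalpha) and 0.684 (Thiolase). Enzymes of different complexes were not paired, so whether such correlations are particular to partners was not tested. No batch was among the sample fields used here, so no values within batches are given.

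The peroxins gave no such pair. The 6 pairs described here that act in 1 step, such as the ring-finger proteins Pex2 and Pex10 or the docking proteins Pex13 and Pex14, had r from -0.118 to 0.198, and none passed (adjusted permutation p of 0.871 or more). The neighbouring genes Pex14 and Pex16 had r = -0.161 (rho = -0.0854, adjusted permutation p = 0.871).

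Of 23 other genes of the same pathways, 22 were in the table and 19 passed the filter. None passed between shocked High and shocked Mid in edgeR, although all 19 log2 differences were negative. An unadjusted p under 0.05 was found for 12, against 10.6% of all genes in that direction. On the fat body score, where 11.2% of all genes rose and 3.27% fell, 11 of the 19 rose and none fell. Among them were Dbi, an acyl-CoA binding protein (slope 0.67, SE 0.06, edgeR adjusted p = 2.57e-11), CG3902, a predicted acyl-CoA dehydrogenase (0.73, SE 0.07), bgm, a very-long-chain acyl-CoA synthetase (0.95, SE 0.10), and Cat, the peroxisomal catalase (0.33, SE 0.06). Of 6 regulators 5 were tested, and 3 rose with the score: AkhR, the receptor of adipokinetic hormone (0.91, SE 0.07), Hnf4, a nuclear receptor that induces lipid oxidation (0.29, SE 0.04), and foxo (0.27, SE 0.05), all with an edgeR adjusted p of 9.86e-05 or less. ERR (-0.04) and srl (-0.14) did not pass, and Akh, the hormone itself, averaged under 1 CPM.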

How the data were processed

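The authors extracted RNA from individual heads, selected it with oligo dT beads and aligned trimmed reads to dm6 with STAR, per the series design text. They removed reads of mapping quality below 8 and non-primary alignments and counted reads on exons with HTSeq, and neither versions nor a strand option were found in the sources used here. Raw counts per gene were deposited. The authors' deposited comparison table holds DESeq2 q-values and log2 fold changes, read as second minus first group. Among the 1976 to 3542 genes per comparison with the larger differences of group means, 96.7 to 99.7% had the sign of that difference. Of 39 samples, 37 had a column and 2 shocked High samples were not analysed here. There were 2 columns that matched no sample and were not used. The design was written for 39 samples. The protocol text also calls the library nuclear RNA-seq, which was left unresolved.

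Members, lists, tests and alternatives were chosen with earlier results of these data known. Genes were filtered with filterByExpr by group and scaled by TMM. One edgeR quasi-likelihood model of the 5 groups gave 8 contrasts and a test of any difference, and 2 further fits added a marker score (mean log2 CPM, prior count 2) as a number. P-values were adjusted over all genes tested and called at 0.05, and SE is the log2 difference over the square root of F. Fits were tested on simulated data. Each library is 1 fly, and precision is limited by these numbers and depths. Marker lists were fat body, muscle, neurons, glia, photoreceptors, haemocytes, male and female. Named genes were all members that passed (the 6 higher and 6 lower with the smallest p where more than 10), otherwise the 3 with the smallest p, and for levels the highest and lowest per role. Other genes were named after their values were seen. Of the 36 members 3 are in every count over the members but are not reported here one by one, and the figures leave them out. Positions and exon lengths came from Ensembl release 115, where 34 members matched by gene ID and 2 by symbol. Pair correlations used 100000 permutations. Chi-square per gene between libraries of 1 group was 7.68 or more, so no library was a copy. Alternatives were DESeq2, its size factors, no filter, covariates, fewer samples and each library left out. Tools were R 4.3.3, edgeR 4.0.16, DESeq2, Python, scipy and matplotlib.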

Additional observations from a re-analysis of the deposited data

Results flagged for a closer look

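In 95 sets of 1 gene in 1 group, covering the 19 members named in a comparison, 5 had a head far from the others of its group, and chance flags about 1 in 20. In shocked Mid replicate 6, CG12262 was 533 CPM against 322 for the next head, and Arc42 was 57.1 CPM against 40.6. In shocked High replicate 3, wal was 180 CPM against 126 for the next head, CG2107 was 37.2 against 23.1 and colt was 134 against 83.0.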

How the results depend on the processing

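Between shocked High and shocked Mid the count of members called moved most: it was 1 in the reported fit, 0 once the fat body score entered the fit, 6 with only the groups compared, 16 in DESeq2, and 0 to 18 over the fits that left out 1 library. Between shocked Low and shocked Mid it was 7 in DESeq2 and 0 to 2 with 1 library left out. For any difference among the 5 groups it was 6 in DESeq2 and 0 to 2 with 1 library left out. On the fat body score it was 22 to 24 with 1 library left out. On the muscle score it was 0 with both scores in one fit, 4 without the 2 farthest heads and 7 to 19 with 1 library left out. The causes of these moves were not tested, and some of these fits hold fewer libraries. Among the members followed by name through the alternatives, no called difference or slope changed sign. The other comparisons had 0 members called under every alternative run.

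By the replicate numbers of the titles, same-numbered heads of different groups had correlations of -0.331 to 0.297 (median 0.0176). Of these 67 pairs 17 were over 0.1, and 7 of 36 heads correlated best with their own number. These numbers differ from the library numbers for some heads, so a pairing by another order was not tested. With the replicate number as a block, 21 members were called between shocked High and shocked Mid (7.28% of all genes). The count was 1 among the 5 groups (0.37%). It was 18 on the fat body score (7.92%, markers included) and 0 on the muscle score (0.681%, markers included).

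Over all genes, 7 were called between shocked High and shocked Mid, but 310 in DESeq2, 748 with the block and 0 to 586 with 1 library left out. Between shocked Low and shocked Mid 2 were called, 150 in DESeq2 and 1 to 52 with 1 library left out. Shock within Mid gave 2, and 0 to 21 over all alternatives. The 5-group test gave 11, and 0 to 88. The pooled shock gave 1, and up to 8. The interaction gave 0, and up to 4. The muscle score gave 522, and 21 to 686, and the fat body score 1482, and 805 to 1636. The SE of a log2 difference between shocked High and shocked Mid had a median of 0.13 over all genes, which limits what these depths and numbers of heads can show.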
